A study of Mus musculus with 9 samples.

Results

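The genes described here encode 5 protein families of contact and guidance signalling: the Eph receptors, their ephrin ligands, the semaphorins, the plexins and the neuropilins. They were chosen by name, as every gene called Epha or Ephb, Efna or Efnb, Sema, Plxna to Plxnd, Nrp1 or Nrp2 with its number or letter, which gave 53 of the 54532 genes listed. The 9 RNA sequencing libraries come from B.END3 cells, described as a mouse brain endothelial cell line and labelled C57BL/6. Groups of 3 libraries each were compared: untreated cells (Ctrl), cells given photodynamic therapy (PDT) with a light dose of 10 J/cm2 (Ep1), and cells given PDT with 20 J/cm2 (Ep2). Before irradiation at 635 nm and 100 mW/cm2, both treated groups stood for 90 min in medium with 300 μg/mL of porfimer sodium, a photosensitizer that generates reactive oxygen species under red light. No library of photosensitizer alone or light alone is among the samples, so the parts of drug and light cannot be told apart. The time from irradiation to lysis is not given in the sources used here.

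Eph receptors are receptor tyrosine kinases that bind ephrins on the membrane of a neighbouring cell, and signals run into both cells. The A-type ephrins are held by a lipid anchor and mostly bind EphA receptors, while the B-type ephrins cross the membrane and mostly bind EphB receptors. Semaphorins are secreted or membrane-bound ligands that act through plexins, and the secreted class 3 semaphorins mostly need a neuropilin as co-receptor. In blood vessels, Efnb2 is known as a mark of arterial and Ephb4 of venous endothelium, and Plxnd1 is the endothelial receptor of Sema3e.

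Values are in FPKM, fragments scaled to gene length and to the size of the library, so levels of different genes can be compared per length. Between 16240688 and 19509225 fragments were counted on genes per library, and libraries of a group differed by more than counting noise. Over all genes, the chi-square per degree of freedom was 9.16 and 13.8 between Ep2 replicate 1 and the other Ep2 libraries. For every other pair within a group it lay between 2.70 and 5.25. The label of the cells was compared with 14 endothelial marker genes, of which 4 had a Ctrl mean of at least 1 FPKM (Slc2a1, Flt1, Egfl7 and Eng). Of the others, Cdh5 was at 0.857 FPKM and Pecam1 at 0.143 FPKM in Ctrl. A Ctrl mean under 0.1 FPKM was found for 7 of the 14, among them Cldn5 at 0.0254 FPKM, and Emcn and Erg at 0 in all libraries. Of 6 epithelial markers, Krt8 at 640.2, Krt18 at 236.9 and Krt19 at 173.5 FPKM were high, while Epcam was at 0.812 FPKM, Cdh1 was at 0.0338 FPKM and Krt7 was at 0. Most of the endothelial markers thus stayed under 1 FPKM in Ctrl, and whether the line is as labelled was not tested. The summed epithelial markers lay between 1029 and 1081 FPKM in Ctrl, between 937 and 1041 FPKM in Ep1, and between 1155 and 1372 FPKM in Ep2, and their part in the results at 20 J/cm2 was not tested. The summed endothelial markers, mostly Slc2a1, ran from 104 to 106, from 106 to 128, and from 133 to 180 FPKM in the same order of groups. Fibroblast markers, mostly Col3a1, summed to between 37.1 and 49.6 FPKM over all libraries, and no mural, astrocyte, neuron or microglia list summed above 4.51 FPKM. In bulk RNA, fewer cells of a kind and less RNA per cell cannot be told apart.

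A gene was tested if it reached 1 FPKM in at least 3 libraries, and called if its adjusted p-value from limma, fitted on all 11727 such genes, was below 0.05. A called gene is a DEG if its log2 fold change, on the scale of log2(FPKM + 1), also exceeded 0.6 in size. Of the 53 guidance genes, 24 were tested, 20 of them with at least 1 FPKM in every library of every group. Ephb6, Nrp1, Sema5a and Sema7a passed without reaching 1 FPKM in every library of every group. The comparisons of Ep1 and of Ep2 with Ctrl share the same Ctrl libraries.

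The largest called changes were the rise of Sema6d and of Efnb2 and the fall of Efna4, Ephb4 and Plxnb2. Ephb4 was lower by a like amount at 10 J/cm2 and at 20 J/cm2, Efnb2 rose at each dose, and Sema6d, Efna4 and Plxnb2 were called by limma against Ctrl at 20 J/cm2 and not at 10 J/cm2. The region around the listed start of 4 of these genes was taken, from 250 bases before it to 50 bases after it, because they are the genes that passed the DEG rule or belong to the opposed Efnb2 and Ephb4. The sequences are from RefSeq on GRCm38.p6, 5′ to 3′ on the strand of the gene, and cover chr2:124089719-124090018 (plus strand, Sema6d), chr3:89337979-89338278 (minus strand, Efna4), chr5:137349859-137350158 (plus strand, Ephb4) and chr8:8661193-8661492 (minus strand, Efnb2). Capitals mark matches on either strand to the GC box (GGGCGG), the antioxidant response element (TGACNNNGC) and the core of the hypoxia response element (ACGTG). The AP-1 site (TGANTCA), the cAMP response element (TGACGTCA) and the E2F site (TTTGGCGC) were searched as well and had no match in these windows.
Sema6d: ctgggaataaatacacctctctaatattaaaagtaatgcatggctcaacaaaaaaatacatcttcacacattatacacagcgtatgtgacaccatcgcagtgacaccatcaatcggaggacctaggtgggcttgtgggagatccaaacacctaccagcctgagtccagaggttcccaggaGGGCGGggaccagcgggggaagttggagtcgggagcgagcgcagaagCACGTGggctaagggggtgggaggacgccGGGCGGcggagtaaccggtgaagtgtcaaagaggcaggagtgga
Efna4: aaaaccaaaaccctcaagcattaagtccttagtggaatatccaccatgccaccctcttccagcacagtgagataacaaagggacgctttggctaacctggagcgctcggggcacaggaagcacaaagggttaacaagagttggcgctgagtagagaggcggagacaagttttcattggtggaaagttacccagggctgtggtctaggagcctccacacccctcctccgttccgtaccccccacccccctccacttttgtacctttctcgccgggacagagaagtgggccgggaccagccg
Ephb4: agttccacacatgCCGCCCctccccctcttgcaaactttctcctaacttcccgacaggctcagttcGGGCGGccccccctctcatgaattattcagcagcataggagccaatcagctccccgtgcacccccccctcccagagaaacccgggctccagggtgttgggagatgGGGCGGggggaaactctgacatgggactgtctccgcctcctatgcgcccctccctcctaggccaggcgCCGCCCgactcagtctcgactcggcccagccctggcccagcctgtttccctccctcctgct
Efnb2: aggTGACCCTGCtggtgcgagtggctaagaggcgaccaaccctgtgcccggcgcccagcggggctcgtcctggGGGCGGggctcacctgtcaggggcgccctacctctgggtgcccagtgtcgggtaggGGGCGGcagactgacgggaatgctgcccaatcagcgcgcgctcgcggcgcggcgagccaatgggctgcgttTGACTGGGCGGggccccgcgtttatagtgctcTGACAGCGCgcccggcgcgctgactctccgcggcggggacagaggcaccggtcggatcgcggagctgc

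The Sema6d window held 2 GC boxes and the letters CACGTG, which match the hypoxia core on both strands. The Ephb4 window held 4 GC boxes. The Efnb2 window held 3 GC boxes and 3 matches to the antioxidant response element, one of which overlaps a GC box. The Efna4 window held none of the 6 motifs. Among all 32851 promoters of this length, 35.7% held a GC box, 12.4% the antioxidant response element, 19.6% the hypoxia core, 7.81% the AP-1 site, 1.79% the cAMP response element and 0.514% the E2F site. Of the guidance genes, 47 had an entry in the promoter table. Sema6d has a further entry with none of the 6 motifs. A match describes letters only, and binding was not measured.

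In Ctrl cells the 53 genes summed to 268.8 FPKM, and Plxnb2, the receptor of class 4 semaphorins, made up 33.8% of this sum. The 5 highest genes, Plxnb2, Epha2, Plxna1, Efna1 and Ephb4, made up 67.7%. A Ctrl mean of at least 10 FPKM was reached by 8 genes, 14 lay between 1 and 10 FPKM, and 31 lay under 1 FPKM. The plot of Ctrl levels shows that most families rested on a single leading gene. Plxnb2 carried 99.8% of the plexin-B sum, Epha2 carried 96.2% of the EphA sum, and Ephb4 carried 79.1% of the EphB sum.

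**Figure D1:**
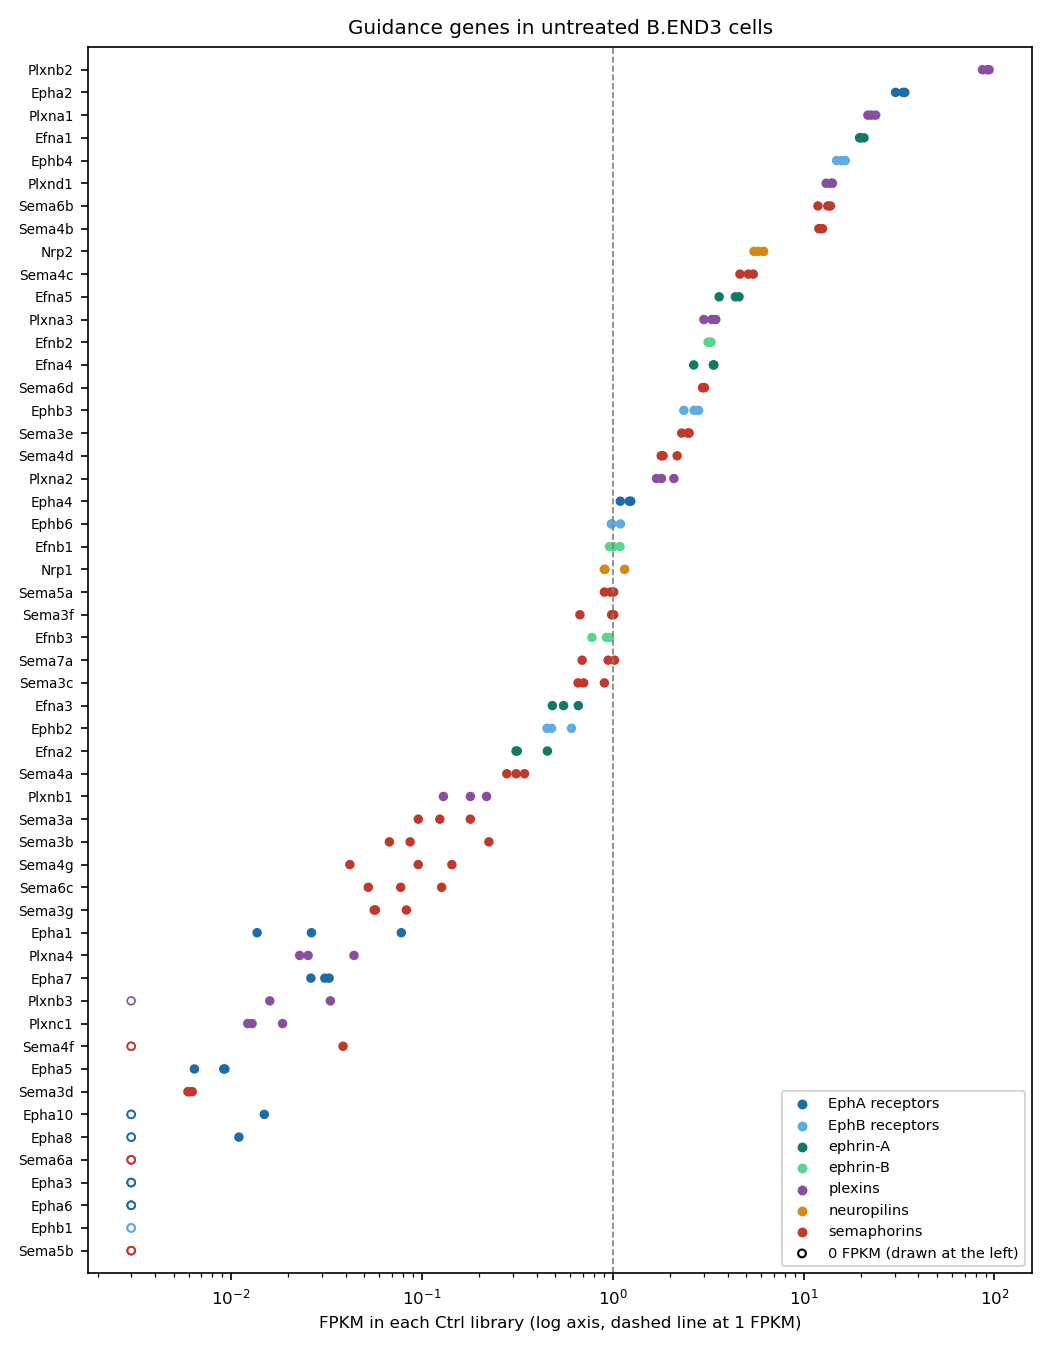
FPKM of all 53 guidance genes in each of the 3 Ctrl libraries on a log axis, coloured by family, with genes ordered by their mean and values of 0 drawn as open circles at the left. Plxnb2 stands at the top, 8 genes have a mean of at least 10 FPKM, and 31 genes have a mean under 1 FPKM.

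The 29 genes under the filter did not exceed 1.34 FPKM in any library, and 17 of them had a mean under 0.1 FPKM over all libraries. No fragment was counted in any library for Epha3, Epha6, Ephb1 and Sema6a, which allows up to 3 fragments, a limit that lay between 0.00823 and 0.116 FPKM over the 53 genes and libraries and covers counting error only. Among these 29 genes were Efnb1 with Ctrl, Ep1 and Ep2 means of 1.02, 0.807 and 0.815 FPKM and Efnb3, its relative, with 0.890, 0.865 and 0.627 FPKM. The remaining class 3 semaphorins were low as well, from Sema3f at 0.892 FPKM to Sema3d at 0.00608 FPKM in Ctrl. Plxnc1, the receptor of Sema7a, had 0.0186, 0.0122 and 0.0129 FPKM in Ctrl, 0.0195, 0 and 0 FPKM in Ep1, and 0.00628, 0 and 0.0289 FPKM in Ep2. At this depth no difference in Plxnc1 was detectable. Epha1, at most 0.240 FPKM, overlaps the abundant Zyx on the opposite strand, and whether the counting used strand is not given in the sources used here.

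At 10 J/cm2, 1 of the 24 tested genes was called higher, against 6.32% of all tested genes, and 3 were called lower, against 4.97%. At 20 J/cm2, 4 were called higher, against 23.9%, and 7 were called lower, against 29.3%. In either direction these counts are 16.7% of the guidance genes at 10 J/cm2, against 11.3% of all tested genes, and 45.8% at 20 J/cm2, against 53.2%. These shares were near the background of all tested genes. Their median log2 fold change was -0.03 at 10 J/cm2 and 0.08 at 20 J/cm2, beside -0.01 and -0.03 for all tested genes. After centring each library on its median, the split at 20 J/cm2 turned to 8 higher and 5 lower. All tested genes turned as well, from 2800 higher and 3436 lower to 3311 and 2971. With voom on the recovered fragments, which tested 38 guidance genes, the split was 8 and 8, against 25.3% and 24.7% of all genes voom tested. After a correction for gene length and GC content it was 6 and 3, beside 3020 and 3016 of all genes in that fit.

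**Figure D2:**
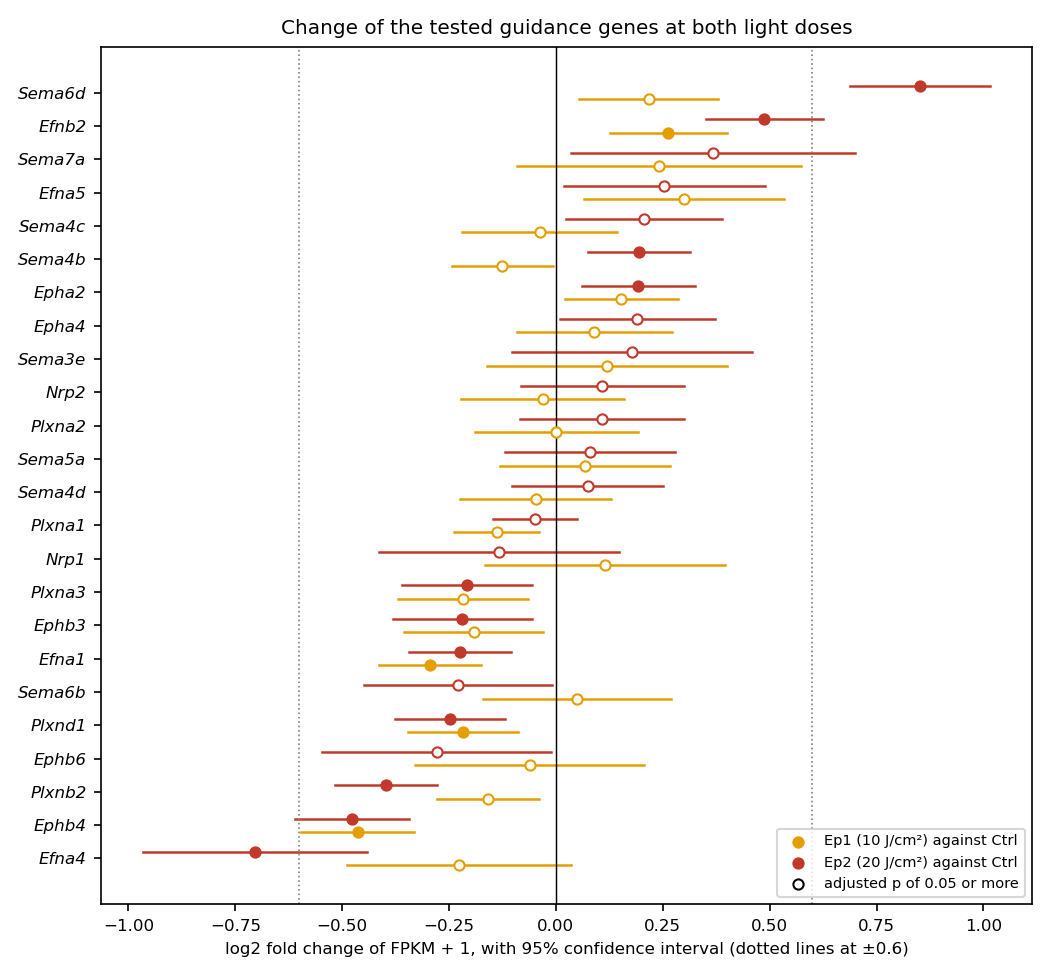
Log2 fold change of FPKM + 1 against Ctrl with its 95% confidence interval for the 24 tested guidance genes, Ep1 in orange and Ep2 in red, filled where the adjusted p-value is below 0.05 and with dotted lines at ±0.6. Sema6d lies at 0.85 and Efna4 at -0.70 at 20 J/cm2, and Ephb4 has nearly the same value at both doses (-0.46 and -0.48).

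Among the ephrin ligands, Efnb2, a transmembrane ligand of EphB receptors, rose at both doses. Its level was 3.16, 3.22 and 3.28 FPKM in Ctrl, 3.93, 4.20 and 4.05 FPKM in Ep1, and 4.77, 5.40 and 4.60 FPKM in Ep2. The 3 groups did not overlap, with Ctrl lowest and Ep2 highest. The log2 fold change was 0.26 (SE 0.061, adjusted p = 0.0287) in Ep1 and 0.49 (SE 0.061, adjusted p = 0.000155) in Ep2. Ep2 was also above Ep1 by 0.22 (adjusted p = 0.0143). The call at 20 J/cm2 held in all 14 alternatives tried, while the call at 10 J/cm2 was lost without any one of the 6 libraries compared, at adjusted p-values from 0.0516 to 0.1001, and without the filter on low values. The gene lies at chr8:8617434-8661242.

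Ephrin-A ligands are lipid-anchored, and 3 of their 5 genes were tested. Efna1, the most abundant of them and a known target of TNF-α in endothelial cells, was at 20.7, 19.7 and 19.9 FPKM in Ctrl, at 16.6, 15.4 and 16.6 FPKM in Ep1, and at 16.1, 17.03 and 18.2 FPKM in Ep2. Both treated groups lay below Ctrl and overlapped each other. Efna1 fell in Ep1 by 0.29 on the log2 scale (SE 0.053, adjusted p = 0.0129) and by 0.22 in Ep2 (adjusted p = 0.00606). The first call was lost without Ctrl replicate 1, Ctrl replicate 2 or Ep1 replicate 3 (largest adjusted p = 0.0544), and the second after a correction for gene length and GC content (adjusted p = 0.155).

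Efna4 was at 2.66, 3.39 and 3.37 FPKM in Ctrl, at 2.47, 2.68 and 2.43 FPKM in Ep1, and at 1.12, 1.77 and 1.77 FPKM in Ep2. Every Ep2 library was below every other library, and Ep2 replicate 1 was the lowest. Efna4 fell in Ep2 by 0.70 on the log2 scale (SE 0.116, 95% confidence interval -0.97 to -0.44, adjusted p = 0.000799). With limma it was the only guidance gene below -0.6, beside 5.87% of all tested genes called lower with such a change. Without Ep2 replicate 1 the log2 fold change was -0.57 and after the correction for length and GC content it was -0.53, so the gene stayed called but was no longer a DEG. In Ep1 the value was -0.23 (adjusted p = 0.228), and Ep2 was below Ep1 by 0.48 on the log2 scale (adjusted p = 0.00872). The gene lies at chr3:89333390-89338028, next to Efna3 and Efna1 on the same strand, with gaps of 10.4 and 32.8 kb between neighbours. Efna3, under the filter and described for its position, had means of 0.566, 0.478 and 0.332 FPKM in Ctrl, Ep1 and Ep2, and its range in Ep2 (0.280 to 0.395 FPKM) lay below that in Ctrl (0.483 to 0.660 FPKM). These ranges rest on 13 to 18 fragments in Ep2 and 23 to 31 in Ctrl, and voom did not call the difference (adjusted p = 0.0748). Efna3 also overlaps Gm15998 on the opposite strand, which reached 1.49 FPKM, and whether the counting used strand is not given.

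Efna5, a ligand that also binds Ephb2, was not called by limma at either dose. Its means were 4.20 ± 0.517 FPKM in Ctrl, 5.39 ± 0.448 FPKM in Ep1 and 5.21 ± 0.752 FPKM in Ep2 (SD, n = 3). The log2 fold changes were 0.30 (adjusted p = 0.093) and 0.25 (adjusted p = 0.0659). The value in Ep2 passed with median centring (adjusted p = 0.0339), with voom (adjusted p = 0.0274) and without Ep2 replicate 1 (adjusted p = 0.0109).

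Among the Eph receptors, Ephb4, the receptor of Efnb2, showed the largest change at 10 J/cm2. Its level was 15.8, 16.6 and 14.9 FPKM in Ctrl, 11.1, 10.5 and 11.8 FPKM in Ep1, and 10.5, 11.1 and 11.5 FPKM in Ep2. All treated libraries lay below all Ctrl libraries, and the treated groups overlapped. Ephb4 fell in Ep1 by 0.46 on the log2 scale (SE 0.059, 95% confidence interval -0.60 to -0.33, adjusted p = 0.00551) and by 0.48 in Ep2 (adjusted p = 0.000148). Ep2 differed from Ep1 by -0.01 with a 95% confidence interval from -0.15 to 0.12 (adjusted p = 0.879). Both calls against Ctrl held in all 14 alternatives tried. The gene lies at chr5:137350109-137378669.

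The ratio of Ephb4 to Efnb2, chosen after the values were seen, describes the receptor and its ligand together. It was 4.99, 5.14 and 4.55 in Ctrl, 2.83, 2.49 and 2.92 in Ep1, and 2.20, 2.06 and 2.49 in Ep2. All Ctrl ratios were above all treated ratios, and the highest Ep2 ratio met the lowest Ep1 ratio. The ratio carries no test.

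Ephb3, an EphB receptor kinase, was at 2.82, 2.67 and 2.36 FPKM in Ctrl, 2.31, 2.12 and 2.06 FPKM in Ep1, and 2.22, 2.16 and 1.93 FPKM in Ep2. The treated libraries lay below Ctrl by little. Ephb3 fell in Ep2 by 0.22 on the log2 scale (adjusted p = 0.0285), a call lost in 8 of 14 alternatives, while Ep1 had -0.19 (adjusted p = 0.114). Ephb6, a receptor whose kinase domain lacks activity, had a mean of 1.02 FPKM in Ctrl, 0.944 FPKM in Ep1 and 0.678 FPKM in Ep2, with -0.28 in Ep2 (adjusted p = 0.0749). This value passed with voom at -0.64 (adjusted p = 0.0249), past the DEG limit, and without Ep2 replicate 3 at -0.38 (adjusted p = 0.0243). The summed EphB receptors went from 19.9 FPKM in Ctrl to 14.7 FPKM in Ep1 and 14.3 FPKM in Ep2, which mostly restates Ephb4.

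Of the EphA receptors, 2 were tested. Epha2, a receptor of Efna1 that is common in epithelium and in endothelium under inflammation, was at 30.4, 33.9 and 33.2 FPKM in Ctrl, 37.7, 36.2 and 34.8 FPKM in Ep1, and 38.8, 34.8 and 38.2 FPKM in Ep2. All treated libraries were above the highest Ctrl library, with the lowest of them close to it. Epha2 rose by 0.19 on the log2 scale in Ep2 (SE 0.059, adjusted p = 0.0199), while the value of 0.15 in Ep1 missed the threshold (adjusted p = 0.12). The call was lost without Ctrl replicate 1, Ep2 replicate 1 or Ep2 replicate 3 (largest adjusted p = 0.0777) and without the filter on low values. Epha4, which binds ephrins of both types, was at 1.19 FPKM in Ctrl, 1.33 FPKM in Ep1 and 1.50 FPKM in Ep2, with 0.19 in Ep2 (adjusted p = 0.0734). This value passed with median centring (adjusted p = 0.0322), with voom at 0.35 (adjusted p = 0.0179) and without Ep2 replicate 1 (adjusted p = 0.0268). The remaining 7 EphA receptors were under the filter.

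**Figure D3:**
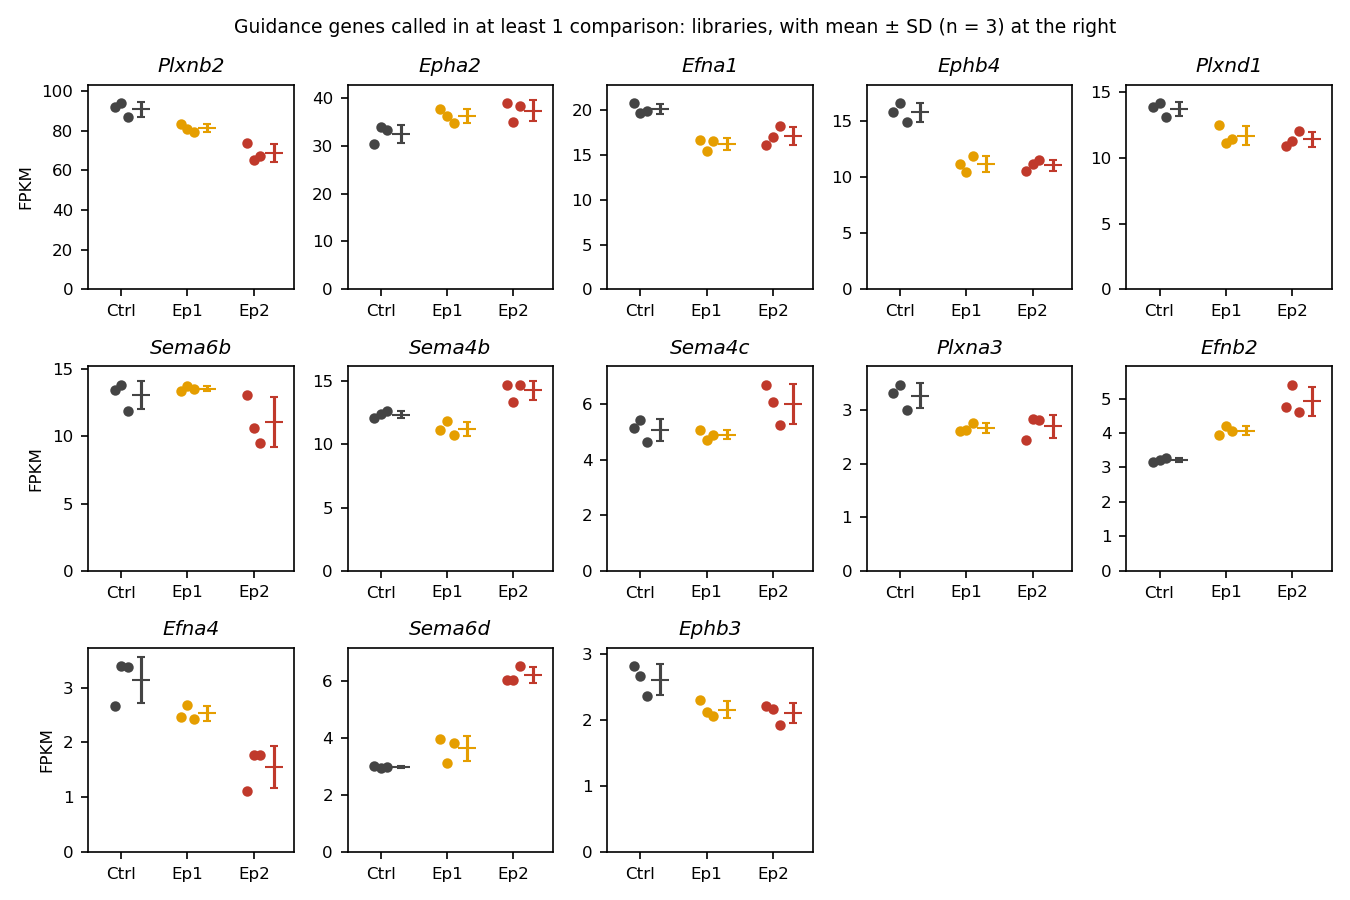
FPKM by library for the 13 guidance genes called in at least 1 comparison, with axes from 0, dots for the libraries of Ctrl (grey), Ep1 (orange) and Ep2 (red), and bars for mean ± SD (n = 3). Ephb4 drops to nearly the same level at both doses, Efnb2 climbs from 3.22 to 4.06 and 4.92 FPKM, and Sema6d stands apart in Ep2 at 6.20 FPKM.

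Among the semaphorins, Sema6d showed the largest change of any guidance gene. Sema6d is a transmembrane ligand of Plxna1. Its level was 3.03, 2.96 and 2.98 FPKM in Ctrl, 3.98, 3.15 and 3.83 FPKM in Ep1, and 6.05, 6.02 and 6.52 FPKM in Ep2. Ep2 lay far above both other groups, and Ep1 lay above Ctrl with 1 library close to it. In Ep2 the mean was 2.08 times that of Ctrl, a log2 fold change of 0.85 (SE 0.072, 95% confidence interval 0.69 to 1.01, adjusted p = 1.95e-05). With limma it was the only guidance gene above 0.6, beside 3.3% of all tested genes called higher with such a change. With voom, Efnb2 at 0.63 (adjusted p = 2.04e-06) and Sema7a at 0.72 (adjusted p = 0.0189) passed the DEG rule in Ep2 as well. For Sema6d, Ep2 was also above Ep1 by 0.63 (adjusted p = 0.000149), or by 0.55 without Ep1 replicate 2, which is under the DEG limit. In Ep1 the value of 0.22 missed the threshold (adjusted p = 0.0828) but passed with voom at 0.27 (adjusted p = 0.0368) and without Ep1 replicate 2 at 0.30 (adjusted p = 0.0283). The gene lies at chr2:124089969-124667770.

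Sema6b, its class 6 relative and a ligand of Plxna4, was at 13.4, 13.8 and 11.9 FPKM in Ctrl, 13.3, 13.7 and 13.5 FPKM in Ep1, and 13.0, 10.6 and 9.47 FPKM in Ep2. Within Ep2, replicate 1 was at the level of Ctrl and the other libraries were below it. Ep2 was below Ep1 by 0.28 on the log2 scale (adjusted p = 0.0428), a call lost in 8 of 14 alternatives. Against Ctrl the value of -0.23 missed the threshold (adjusted p = 0.0737) but passed without Ep2 replicate 1 (adjusted p = 0.00291).

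Of the class 4 semaphorins, ligands of B-type plexins, Sema4b was at 12.03, 12.3 and 12.6 FPKM in Ctrl, 11.1, 11.8 and 10.7 FPKM in Ep1, and 14.7, 13.3 and 14.7 FPKM in Ep2. The groups did not overlap, with Ep1 lowest and Ep2 highest. Sema4b rose by 0.19 in Ep2 against Ctrl (SE 0.053, adjusted p = 0.0122) and by 0.32 against Ep1 (adjusted p = 0.00116), and both calls held in all 14 alternatives. In Ep1 the value was -0.13 (adjusted p = 0.151). Sema4c, a ligand of Plxnb2, was at 5.08 ± 0.409 FPKM in Ctrl, 4.91 ± 0.172 FPKM in Ep1 and 6.03 ± 0.725 FPKM in Ep2 (SD, n = 3). Ep2 was above Ep1 by 0.24 (adjusted p = 0.0344), a call that 7 of 14 alternatives lost. Against Ctrl, Sema4c had 0.21 in Ep2 (adjusted p = 0.0561), which passed in 5 alternatives: median centring, the replicate block, voom, the correction for length and GC content, and without Ep2 replicate 3, at adjusted p-values from 0.000745 to 0.0415. Sema4d, a ligand of Plxnb1 and Plxnb2, was at 1.94, 1.84 and 2.09 FPKM on average in Ctrl, Ep1 and Ep2, with adjusted p-values of 0.727 and 0.453 against Ctrl.

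The leading genes of classes 3, 5 and 7 were not called by limma. Sema3e, the ligand of Plxnd1, was at 2.30, 2.52 and 2.48 FPKM in Ctrl, 2.89, 2.45 and 2.85 FPKM in Ep1, and 2.10, 3.23 and 3.46 FPKM in Ep2. Ep2 replicate 1 was the lowest of all libraries and the other Ep2 libraries were the highest. The log2 fold change in Ep2 was 0.18 (adjusted p = 0.259), and it was 0.34 (adjusted p = 0.0043) without Ep2 replicate 1.

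Sema5a, a transmembrane semaphorin with thrombospondin repeats, was at 1.01, 0.906 and 0.974 FPKM in Ctrl, 1.03, 1.09 and 1.05 FPKM in Ep1, and 0.901, 1.15 and 1.18 FPKM in Ep2. Its Ep2 libraries fell on both sides of Ctrl, with 0.08 (adjusted p = 0.479). Sema7a, a lipid-anchored semaphorin, was at 0.692, 1.02 and 0.947 FPKM in Ctrl, 1.49, 1.12 and 1.08 FPKM in Ep1, and 1.97, 1.38 and 1.02 FPKM in Ep2. Ep2 replicate 1 was the highest and Ep2 replicate 3 overlapped Ctrl. The value of 0.37 in Ep2 had an adjusted p of 0.0615, and without Ep2 replicate 3 it was 0.50 (adjusted p = 0.0178). Sema7a also passed with voom at 0.72 (adjusted p = 0.0189), with median centring (adjusted p = 0.0399) and after the correction for length and GC content (adjusted p = 0.00805).

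Among the receptors of semaphorins, Plxnb2 fell at 20 J/cm2. Its level was 92.0, 93.9 and 86.6 FPKM in Ctrl, 83.3, 80.9 and 79.5 FPKM in Ep1, and 73.8, 65.2 and 67.3 FPKM in Ep2. The 3 groups did not overlap and followed the order of the dose. Plxnb2 fell in Ep2 by 0.40 on the log2 scale (SE 0.053, 95% confidence interval -0.52 to -0.28, adjusted p = 0.000224) and Ep2 was below Ep1 by 0.24 (adjusted p = 0.00536). In Ep1 the value of -0.16 had an adjusted p of 0.0828, and it passed in the fit of only the 2 groups compared (adjusted p = 0.035) and with voom (adjusted p = 0.0185). As the most abundant guidance gene, Plxnb2 took the plexin-B sum from 91.0 FPKM in Ctrl to 81.4 FPKM in Ep1 and 69.0 FPKM in Ep2.

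Plxnd1 was at 13.9, 14.2 and 13.1 FPKM in Ctrl, 12.5, 11.1 and 11.4 FPKM in Ep1, and 10.9, 11.3 and 12.1 FPKM in Ep2. Treated libraries were all below Ctrl and the doses overlapped. Plxnd1 fell in Ep1 by 0.22 on the log2 scale (SE 0.057, adjusted p = 0.0413), a call lost in 8 of 14 alternatives, among them the omission of any 1 of the libraries compared other than Ctrl replicate 3. It fell by 0.25 in Ep2 (adjusted p = 0.00522), a call lost after the correction for length and GC content (adjusted p = 0.0705).

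Of the A-type plexins, Plxna3, a receptor that works with Nrp2, was at 3.31, 3.47 and 3.01 FPKM in Ctrl, 2.61, 2.62 and 2.76 FPKM in Ep1, and 2.44, 2.83 and 2.81 FPKM in Ep2. Both treated groups lay below Ctrl. Plxna3 fell in Ep2 by 0.21 on the log2 scale (adjusted p = 0.0264), a call lost in 7 of 14 alternatives, and Ep1 had -0.22 (adjusted p = 0.0667), which passed in the fit of only the 2 groups compared (adjusted p = 0.0468) and with voom (adjusted p = 0.0222). Plxna1, the receptor of Sema6d, was at 22.7, 23.9 and 21.7 FPKM in Ctrl, 21.0, 20.4 and 20.4 FPKM in Ep1, and 22.5, 21.6 and 21.8 FPKM in Ep2. In Ep1 it had -0.14 (adjusted p = 0.0723), which passed with voom (adjusted p = 0.0299), and in Ep2 the difference from Ctrl was -0.05 with a 95% confidence interval from -0.15 to 0.05. Plxna2, a receptor of class 6 semaphorins, was at 1.86, 1.86 and 2.09 FPKM on average in Ctrl, Ep1 and Ep2 (adjusted p of 0.312 in Ep2).

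The neuropilins, co-receptors of class 3 semaphorins and of VEGF, were not called by limma in any of the 3 comparisons. Nrp2 was at 5.50, 5.81 and 6.19 FPKM in Ctrl, 6.13, 5.56 and 5.39 FPKM in Ep1, and 5.46, 6.88 and 6.83 FPKM in Ep2. Ep2 replicate 1 again stood with the lowest libraries. The value in Ep2 was 0.11 (adjusted p = 0.309), or 0.20 (adjusted p = 0.0269) without that library. Nrp1 was at 0.990 ± 0.143 FPKM in Ctrl, 1.15 ± 0.0708 FPKM in Ep1 and 0.827 ± 0.289 FPKM in Ep2 (SD, n = 3), and Ep2 had -0.13 (adjusted p = 0.392). Against Ep1, Nrp1 had -0.25 in Ep2 (adjusted p = 0.133), which passed with voom at -0.53 (adjusted p = 0.0437) and without Ep2 replicate 3 at -0.36 (adjusted p = 0.0429).

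Comparing the doses with each other, 4 of 24 genes were called higher in Ep2 than in Ep1 (Efnb2, Sema4b, Sema4c and Sema6d), against 18.8% of all tested genes, and 3 were called lower (Efna4, Plxnb2 and Sema6b), against 25.2%. With median centring these counts were 5 and 2, and those of all tested genes turned from 2206 and 2950 to 2974 and 2383. The share called in either direction was 29.2%, against 44.0% of all tested genes. The median log2 fold change was 0.05, beside -0.01 for all tested genes. Of the 22 calls in the 3 comparisons, made on 13 genes, 12 held in all 14 alternatives, and all 22 kept their sign. No guidance gene was a DEG in Ep1 with limma or with voom, against 0.571% of all tested genes higher and 0.222% lower with limma. In that comparison 12 of the 24 had an unadjusted p-value below 0.05. The share of all tested genes at this unadjusted limit is not given, here or below, so such counts cannot be set against it. In Ep1, 7 genes had all libraries above Ctrl, against 20.8% of all tested genes, and 8 had all libraries below, against 20.5%. In Ep2 these numbers were 5, against 27.0%, and 8, against 32.7%. Between the doses, 5 genes had all Ep2 libraries above all Ep1 libraries, against 24.1%, and 3 had them below, against 30.3%. Sema6d was the DEG higher in Ep2 than in Ep1, against 1.94%. No guidance gene was a DEG lower in Ep2 than in Ep1 with limma, against 3.97%, and 1 was with voom. The share of all genes that were DEGs with voom is not given. In this comparison of the doses, 7 genes had an unadjusted p-value below 0.05.

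Downstream partners of the receptors were described from lists. Of 22 tested partners of Eph and ephrin signalling, 2 were called higher and 1 lower at 10 J/cm2, and 10 were called higher and 4 lower at 20 J/cm2. Of all tested genes, 6.32% were called higher and 4.97% lower at 10 J/cm2, and 23.9% higher and 29.3% lower at 20 J/cm2. Their median log2 fold change at 20 J/cm2 was 0.14. Abl2, a tyrosine kinase that remodels actin, rose by 0.34 in Ep1 (adjusted p = 0.0104), from 16.2 to 20.9 FPKM. Sdcbp, the scaffold syntenin that binds the tail of B-type ephrins, rose by 0.56 in Ep2 (adjusted p = 2.26e-05), from 30.6 to 45.6 FPKM. The 1 DEG of this list was Vav3, which rose by 0.70 in Ep2 (adjusted p = 5.37e-05), from 3.43 to 6.21 FPKM. Of all tested genes, 3.3% were DEGs higher at 20 J/cm2. Vav3 was also called higher in Ep1, at 0.32 (adjusted p = 0.027). Inppl1, the lipid phosphatase SHIP2 that binds Epha2, fell in Ep1 by 0.24 on the log2 scale (adjusted p = 0.0332) and by 0.41 in Ep2 (adjusted p = 0.000358).

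Of 27 tested partners of semaphorin, plexin and neuropilin signalling, 4 were called higher and 1 lower at 10 J/cm2, against 6.32% and 4.97% of all tested genes. At 20 J/cm2, 13 were called higher and 5 lower, against 23.9% and 29.3% of all tested genes, with a median of 0.06. Gsk3b, a kinase in the semaphorin response, rose by 0.30 in Ep1 (adjusted p = 0.00879) and by 0.50 in Ep2 (adjusted p = 2.89e-05). Rnd2 fell in Ep1 by 0.36 on the log2 scale (adjusted p = 0.0141) but had -0.03 in Ep2 (adjusted p = 0.75). Rnd1, a GTPase that binds plexins, fell in Ep2 by 0.60 on the log2 scale (adjusted p = 0.000286), from 2.87 to 1.55 FPKM. At -0.6003 it was the 1 DEG of this list, close to the limit, beside 5.87% of all tested genes that were DEGs lower.

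Of the other guidance ligands and receptors (slits, netrins and their receptors, RGM and FLRT proteins), 9 were tested. At 10 J/cm2 limma called none, against 6.32% of all tested genes higher and 4.97% lower, with 2 at an unadjusted p-value below 0.05. Among the 14 that voom tested, it called 1 lower, against 7.57% of all genes it tested. At 20 J/cm2, 2 were called higher and 3 lower, against the same 23.9% and 29.3%, with a median of 0.02. Rgmb, a ligand of neogenin and BMP co-receptor, rose by 0.50 (adjusted p = 2.44e-05), from 5.90 to 8.77 FPKM. Unc5b, an endothelial netrin receptor, fell by 0.28 on the log2 scale (adjusted p = 0.000516), from 35.9 to 29.3 FPKM.

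**Figure D4:**
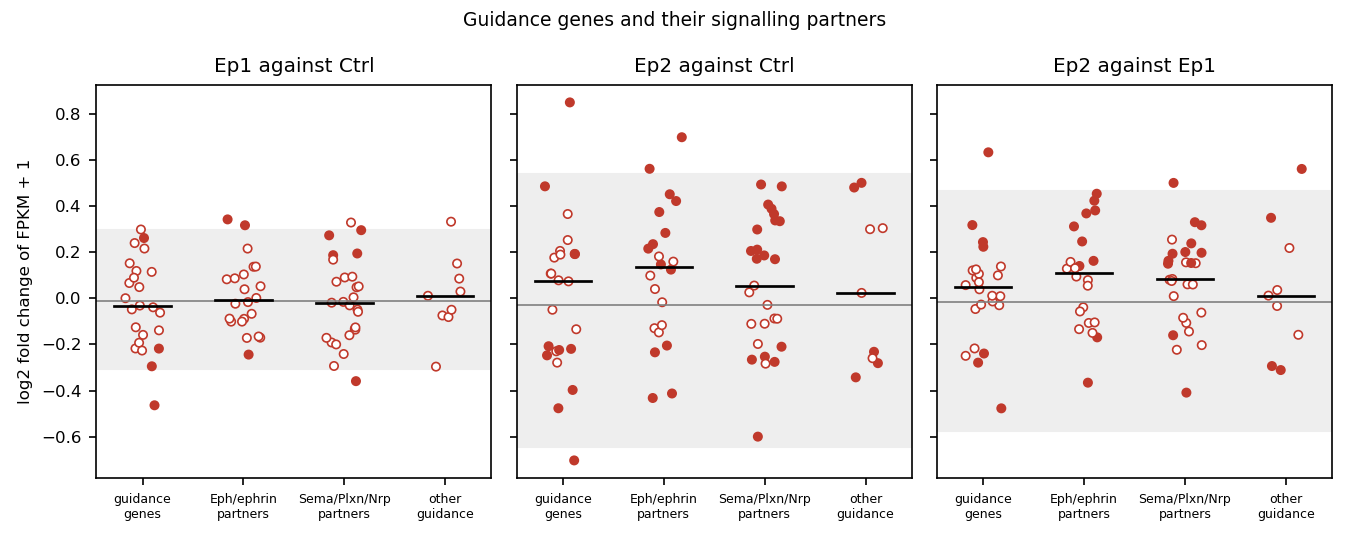
Log2 fold change of FPKM + 1 of the tested guidance genes and of the 3 partner lists in each comparison, with a dot per gene (filled where the adjusted p-value is below 0.05), a black line at the median of each set, a grey line at the median of all tested genes and a grey band holding their middle 90%. In Ep2 against Ctrl the medians of the 4 sets lie between 0.02 and 0.14. Outside the band fall Sema6d at 0.85 and Efna4 at -0.70 among the guidance genes, and Vav3 at 0.70 and Sdcbp at 0.56 among the partners.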

How the data were processed

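The authors sequenced paired-end libraries of 9 samples and deposited FPKM values for 54532 genes, scaled to the length of each gene and the size of each library. The submitters' processing notes name Bowtie 0.12.2 and mm8, the paper's methods name GRCm39, and of 36523 listed genes compared 99.9% overlap their position on GRCm38, which is used here. The counting tool is not given in the sources used here. The growth notes call the line rat and the organism field mouse.

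FPKM multiplied by gene length gave whole fragments within 0.05 for 100% of values. Library totals were 18289776 to 19509225 (Ctrl), 16797492 to 18603707 (Ep1) and 16240688 to 18575984 (Ep2), and a count of 0 allows 3 fragments, for counting error only. Groups follow the labels. Nothing says that replicates are separate cultures, so p-values measure the spread between these libraries, which may be technical. With 3 against 3 libraries, an exact permutation test cannot go below p = 0.1, so single genes rest on the fit across all genes.

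From the deposited FPKM, log2(FPKM + 1) of the 11727 genes with at least 1 FPKM in at least 3 libraries was fitted with limma 3.58.1 in R 4.3.3 (lmFit, eBayes with trend and robust), all 9 libraries in one model, with Benjamini-Hochberg adjustment over all genes tested. Fold changes on this scale understate those of low genes. Alternatives were a pseudocount of 0.1, no filter, a filter of 2 FPKM, median centring, a replicate block, only the groups compared, voom on fragments (14112 genes with at least 10 fragments in at least 3 libraries, of which 1995, 7049 and 5881 were called in Ep1 against Ctrl, Ep2 against Ctrl and Ep2 against Ep1) and each replicate left out. A correction for gene length and GC content was added after seeing the data. Each single call had 14 alternatives. Same-numbered replicates did not deviate together (correlations from -0.056 to 0.074), so the numbers were not taken as pairs.

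Every tested guidance gene is described. Values of all libraries are given for genes called against Ctrl, for DEGs and for the gene with the highest Ctrl mean of each family. Of each partner list, the called gene with the smallest adjusted p in each direction and dose is named, and so are its DEGs. The members and lists were chosen with earlier results of these data known. The procedure was also run on simulated data with the same dispersion for every gene and no library standing apart. The real libraries differ from this setting, so that run does not show how the calls hold here. Tables were prepared with Python 3.11.15, pandas 2.3.3 and numpy 2.4.6, and plots with matplotlib 3.10.9.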

Additional observations from a re-analysis of the deposited data

How the results depend on the processing

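Of the 168 counts of called guidance genes or DEGs recomputed under an alternative, 145 stayed within 1.5 times the reported count. At 10 J/cm2 the count called higher was 0 without the filter and 2 with voom. The count called lower was 5 in the fit of only the 2 groups compared and 6 with voom. Of all genes voom tested, 6.57% were called higher and 7.57% lower at this dose. At 20 J/cm2 the genes called higher were 8 with median centring and 8 with voom, and those called lower were 3 after the correction for length and GC content. The calls over all tested genes at 20 J/cm2, given with the counts in the Results, moved with median centring, voom and this correction as well. Those of the fits without the filter and of only the 2 groups compared are not given. DEGs at 20 J/cm2 were 3 higher and 2 lower with voom, and 0 lower after the correction for length and GC content. DEGs lower in Ep2 than in Ep1 were 1 with a pseudocount of 0.1 and 1 with voom, beside 0 in the report. The shares of all genes that were DEGs under these alternatives are not given, so the DEG counts cannot be set against them. The cause of the moves in these counts was not tested.

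With each replicate left out in turn, genes called higher ranged from 0 to 1 at 10 J/cm2, with 1 only without Ep1 replicate 2, and genes called lower from 1 to 3, with 1 without Ctrl replicate 1, Ctrl replicate 2 or Ep1 replicate 3. Genes called higher at 20 J/cm2 ranged from 3 to 7, with 7 without Ep2 replicate 1. DEGs lower in Ep2 than in Ctrl ranged from 0 to 1, with 0 without Ep2 replicate 1, and DEGs higher in Ep2 than in Ep1 from 0 to 1, with 0 without Ep1 replicate 2. With the replicate block the calls were 1 higher and 2 lower at 10 J/cm2 and 5 higher and 7 lower at 20 J/cm2. For the replicate block and the fits with a library left out, the calls over all tested genes are not given. The counts of guidance genes in these fits therefore cannot be set against a background. Depth limits the 29 genes under the filter, of which voom tested 14.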
